A study of Homo sapiens with 4 samples.

Results

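Peaks in coding exons other than the last were taken from the peak list of a HuR immunoprecipitation in MDA-MB-231, a line of human breast cancer cells of the triple-negative type. HuR RNA immunoprecipitation and sequencing (RIP-seq) used a mouse antibody against HuR in 2 samples and mouse IgG as the control in 2 samples, all from this line. The deposited result is 1 list of 14149 peaks for all 4 samples. It holds no value for a single sample and none for IgG alone, so neither the enrichment of a peak over IgG nor the variation of replicates could be measured here. The depth of the libraries is unknown. A peak was a member if its annotation named an exon with a number below the exon count of that RefSeq transcript. This gave 1143 peaks, or 8.08% of the list with a Wilson 95% interval of 7.64 to 8.54%, and 64.3% of the 1778 peaks annotated to an exon. The other 635 exon peaks lay in last exons. All intervals below cover counting error only. Peaks of 1 exon or 1 gene are not independent of each other.

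HuR, the product of ELAVL1, is an RNA-binding protein with RNA recognition motifs that contact U-rich and AU-rich stretches of RNA. It is found in the nucleus, where it meets unspliced RNA, and in the cytoplasm, where it is best known for binding 3′-UTRs and stabilizing mRNAs. Coding exons are mostly short and richer in G and C than introns or 3′-UTRs.

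The first sequences show how an exon peak lay on its exon. They are the middle 300 bases of the highest member of SET (histone chaperone and phosphatase inhibitor), CD9 (membrane tetraspanin), ELAVL1 (HuR itself) and XIAP (inhibitor of caspases), in hg38 and in the sense direction of the gene, with the host exon in capitals. They were chosen after their values were seen, SET and CD9 for high scores in short exons and the others as genes the study discusses. SET is chr9:128693835-128694134 on the + strand, CD9 is chr12:6235416-6235715 on the + strand, ELAVL1 is chr19:7967636-7967935 on the − strand and XIAP is chrX:123900353-123900652 on the + strand.
SET: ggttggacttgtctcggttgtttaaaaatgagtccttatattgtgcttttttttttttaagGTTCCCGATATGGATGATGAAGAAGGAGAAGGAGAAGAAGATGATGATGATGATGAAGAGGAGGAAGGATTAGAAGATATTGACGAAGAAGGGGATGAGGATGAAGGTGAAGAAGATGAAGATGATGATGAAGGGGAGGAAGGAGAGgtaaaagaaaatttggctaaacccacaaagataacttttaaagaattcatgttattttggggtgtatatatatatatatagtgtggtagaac
CD9: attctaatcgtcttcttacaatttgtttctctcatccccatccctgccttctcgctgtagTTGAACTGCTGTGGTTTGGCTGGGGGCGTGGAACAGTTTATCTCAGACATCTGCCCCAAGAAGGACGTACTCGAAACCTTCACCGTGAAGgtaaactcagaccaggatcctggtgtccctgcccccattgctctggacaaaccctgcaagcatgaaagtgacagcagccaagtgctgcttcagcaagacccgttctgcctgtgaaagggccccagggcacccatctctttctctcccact
ELAVL1: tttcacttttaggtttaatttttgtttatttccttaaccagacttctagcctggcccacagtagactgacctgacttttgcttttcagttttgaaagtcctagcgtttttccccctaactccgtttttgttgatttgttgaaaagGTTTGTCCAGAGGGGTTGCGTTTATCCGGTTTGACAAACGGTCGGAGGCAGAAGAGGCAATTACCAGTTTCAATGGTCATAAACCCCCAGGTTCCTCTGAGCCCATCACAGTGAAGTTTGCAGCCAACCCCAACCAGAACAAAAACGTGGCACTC
XIAP: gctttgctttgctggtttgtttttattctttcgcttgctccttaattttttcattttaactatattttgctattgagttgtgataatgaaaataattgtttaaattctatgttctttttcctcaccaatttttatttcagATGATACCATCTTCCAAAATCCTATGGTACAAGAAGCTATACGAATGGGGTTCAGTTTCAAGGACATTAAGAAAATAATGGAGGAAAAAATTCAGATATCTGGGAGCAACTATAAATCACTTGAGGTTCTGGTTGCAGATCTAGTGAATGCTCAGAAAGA

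In SET, 147 of the 300 bases were exon 7 of 8, and a run of T ended the intron before it. In CD9, 90 of 300 bases were exon 6 of 8. In ELAVL1, 155 of 300 bases belonged to exon 5 of 6 and the intron bases ahead of it held several T-rich stretches. In XIAP, 160 of 300 bases were exon 6 of 7. None of these 4 peaks held ATTTA or a run of 5 T inside its exon part.

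The second set shows the range of motif content inside coding sequence. ATTTA and TTTTT, written as DNA and searched on the sense strand only, are in capitals. ACTB (beta-actin) holds the highest-scoring peak and neither motif, C1GALT1 (a galactosyltransferase of O-glycan synthesis) holds the most ATTTA of all members, and GAPVD1 (a regulator of endocytic Rab proteins) holds both motifs. The windows are the coding part of the peak, cut to at most 300 bases. ACTB is chr7:5528281-5528542 on the − strand, C1GALT1 is chr7:7238477-7238776 on the + strand and GAPVD1 is chr9:125302075-125302374 on the + strand.
ACTB: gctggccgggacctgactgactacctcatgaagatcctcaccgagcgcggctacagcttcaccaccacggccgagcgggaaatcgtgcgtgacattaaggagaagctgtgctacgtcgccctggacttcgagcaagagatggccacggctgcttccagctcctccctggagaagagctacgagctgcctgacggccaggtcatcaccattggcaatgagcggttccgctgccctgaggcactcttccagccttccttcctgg
C1GALT1: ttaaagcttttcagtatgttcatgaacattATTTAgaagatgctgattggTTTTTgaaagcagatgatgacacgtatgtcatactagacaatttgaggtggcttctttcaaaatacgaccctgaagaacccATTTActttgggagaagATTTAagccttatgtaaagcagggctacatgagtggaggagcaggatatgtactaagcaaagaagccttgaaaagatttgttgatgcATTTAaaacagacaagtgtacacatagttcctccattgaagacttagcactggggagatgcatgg
GAPVD1: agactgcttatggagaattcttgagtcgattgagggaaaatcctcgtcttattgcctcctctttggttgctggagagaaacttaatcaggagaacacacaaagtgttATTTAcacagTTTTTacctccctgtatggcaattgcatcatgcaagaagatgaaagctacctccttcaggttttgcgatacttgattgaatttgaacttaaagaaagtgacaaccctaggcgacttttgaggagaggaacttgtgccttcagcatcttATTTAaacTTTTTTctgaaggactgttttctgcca

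The members fell in 768 host genes, taken as the gene of the RefSeq transcript in the annotation. These were 3.9% of 19676 protein-coding genes and 24.9% of the 3084 genes with any listed peak. RefSeq and GENCODE each gave a gene or an exon for 1141 of the 1143 peaks, and 1088 matched a GENCODE transcript with the listed exon number and exon count. Of the host genes, 490 had 1 member, 207 had 2, 49 had 3, 20 had 4 and 2 had 5. In 113 genes, or 14.7%, every listed peak was a member. A 3′-UTR peak was also listed in 339 of the host genes and an intron peak in 565. Members lay on 564 + and 579 − strands and on 23 chromosomes, with 137 on chromosome 1. Exon 1 held 175 members, exon 2 held 162, exon 3 held 134 and the exon before the last held 125. The listed transcripts had a median of 12 exons.

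Peak scores of members were intermediate. The score is HOMER's own value, and its scale is not stated by the authors. The median was 38.7 with quartiles of 18.6 and 88.3 and a range from 8.56 to 25897.6. Last exons had a median of 66.8, 3′-UTRs of 65.4 (2062 peaks) and internal introns of 27.9 (7401 peaks). Of the scores under 30, 98.3% lay near a multiple of a step of 0.245, and higher scores were not checked. On this step the lowest member was at 35 steps and the median member at 158. In all, 264 members scored at least 100 and 14 at least 1000. Members held 10.7% of the summed score of the list, and ACTB alone made up 32.4% of the members' sum.

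**Figure D1:**
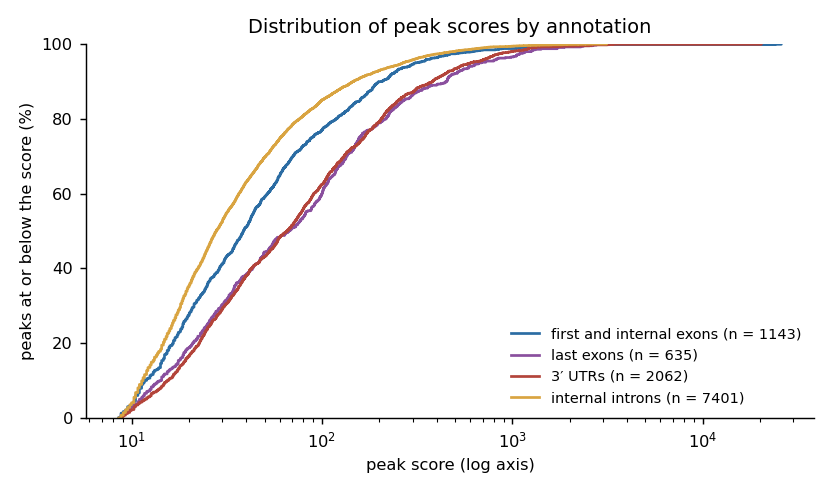
Cumulative share of peaks (y axis, percent) at or below each peak score (x axis, log scale) for peaks in first and internal exons, last exons, 3′-UTRs and internal introns. The curve of first and internal exons, with its median of 38.7, runs between that of internal introns, with 27.9, and those of 3′-UTRs and last exons, with 65.4 and 66.8.

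The same order was seen within genes. In 339 genes with both kinds of peak, the gene's median score in the 3′-UTR exceeded that of its members by a median of 0.34 on the log2 scale (mean 0.42, SD 0.83), and it was higher in 238 genes, lower in 100 and equal in 1. Last-exon peaks were higher than members in 118 and lower in 34 of 152 genes, with a median log2 difference of 0.50 (SD 0.71). Internal intron peaks had lower scores than members in 401 and higher in 124 of 528 genes, with a median log2 difference of -0.57 (SD 0.81). These differences were smaller than 1 SD of their spread over genes. A member was the best peak of its gene in 368 of the 768 host genes, or 47.9%. These genes were chosen for having a member, and in 113 of them every listed peak was one. The 3′-UTR held the best peak in 177, and 339 host genes had a 3′-UTR peak. An intron held it in 108, and 565 had an intron peak.

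The highest member was in ACTB, a core part of the actin cytoskeleton. Its exon 4 of 6, 439 bp long at chr7:5528281-5528719, held 2 members that overlapped on opposite strands, with scores of 25897.6 and 24048.3. Its 3′-UTR held the other 2 peaks of the gene, with 20370.7 and 20120.4, so the exon scored above the 3′-UTR. ACTB has a near-identical paralog, ACTG1, and processed pseudogenes, and how reads with several matches were assigned is not given in the sources used here, so its scores are uncertain.

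PHLDA1, a pleckstrin homology-like protein, came next with 2144.2 in exon 1, below its 3′-UTR peak of 2562.2. SET had members in exon 6 (1224.6) and exon 7 (2136.6), and the highest of its 3 intron peaks, in intron 5, had a score between theirs, 1310. CDC42, which organizes the cytoskeleton, had members in exon 4 (1261.7) and exon 5 (1486.9). Their scores were between those of its 3′-UTR peaks, 713.1 and 1614.4. SET and CDC42 also have processed copies elsewhere in the genome, with the same uncertainty.

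UBE2N, a ubiquitin-conjugating enzyme, had 1460.5 in exon 2, and its last exon reached 2638.5. ANKRD1, an ankyrin repeat protein known as a YAP target, had 1232.6 in exon 3 and 1083.6 in exon 4, and its last exon reached 2297.1. CD9 had 1192 in exon 6, near its highest intron peak of 1252.9 and below its last exon at 1721.1. The CD9 member was above its 3′-UTR peak of 1030.7. In these 3 genes the coding member was lower than the peak of the last exon.

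CORO1C, an actin-binding coronin, had 1149.4 in exon 10 of 11, close to its 3′-UTR peaks of 1204.2 and 1158.5. AXL, a receptor tyrosine kinase, had 1058.6 in exon 6 of 19, well below its last exon at 2768.7. HNRNPU, a nuclear RNA-binding protein, had 1046.6 in exon 1 of 14, near its intron peaks of 1087.5 and 1077. Among these 10 genes, the highest member was also the gene's best peak in ACTB and SET only.

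**Figure D2:**
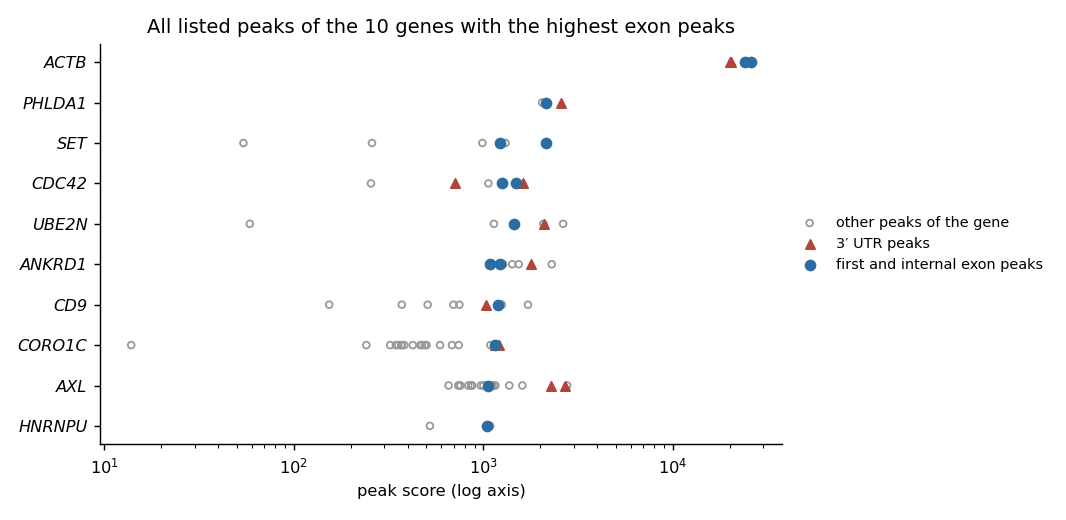
Scores (x axis, log scale) of every listed peak of the 10 genes with the highest members, with members as blue circles, 3′-UTR peaks as red triangles and all other peaks as open grey circles. ACTB stands apart with all 4 peaks between 20120.4 and 25897.6, and in AXL the member at 1058.6 sits among the intron peaks while the 3′ end is higher.

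Of the 10 genes with the most members, 9 had a highest member from 53.6 to 290.2, and ZFHX3 had 31.8, where the median over all host genes was 38.6. LARP1, which binds mRNAs of the translation machinery, had 5 members of 12 peaks, from 121.4 in exon 5 to 290.2 in exon 13, the latter slightly above its 3′-UTR peak of 281.4. ZFHX3, a zinc finger homeobox transcription factor, had 5 members of 6 peaks, from 17.4 to 31.8, and no 3′-UTR peak. YTHDF1, a reader of methylated adenosine in mRNA, had 4 members: 3 in exon 4, 1521 bp long, with 171.3, 172.3 and 179.6, and 1 in exon 2, 25 bp long, with 29.9. Both of its 3′-UTR peaks were higher, at 226.1 and 230.3.

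RBPJ, the DNA-binding factor of Notch signalling, had members in exons 1, 5, 6 and 7 with 61.7, 150, 224.4 and 176.9. The exons were 35 to 175 bp long. DUSP7, a MAP kinase phosphatase, had 2 overlapping pairs, 158.6 and 139.2 in exon 2 and 79.3 and 51.9 in exon 1. PHACTR4, a regulator of phosphatase and actin, had 43.8 and 44 in exon 6 and 53.6 for both peaks of exon 7. MTMR4, MMS22L, MED13L and DLC1 had 4 members each, with best scores of 197.7, 76.6, 69.5 and 253.3. DUSP7 and PHACTR4 thus had 2 exons with a pair of members each.

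ELAVL1 itself had 1 member among 11 peaks, in exon 5 of 6, with a score of 597.8 against 812 and 799.5 in the 3′-UTR and 66.6 to 623.3 in introns. XIAP had 1 member among 3 peaks, with 60.7 against 30.8 and 20.3 in introns. Of the 14 genes that the study discusses, 2 thus had a member. The share with a member was 3.9% over all protein-coding genes and 24.9% over genes with any listed peak. CTNNB1 (1 peak), MSI2 (19 peaks) and FOXQ1 (4 peaks) were listed without a member, and the other 9 genes had no listed peak. The UTR peaks of FOXQ1 were annotated to exon 1 of 1, so by the rule this transcript could not hold a member.

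The clearest feature of the members was the length of their exon. The median host exon was 409 bp long with quartiles of 160 and 725 bp and a range from 25 to 6156 bp. The other coding first and internal exons of the same transcripts had a median of 127 bp (quartiles 93 and 170 bp, n = 9469). Exons shorter than a peak, which is 347 bp wide, made up 42.1% of host exons counted per member and 96.7% of those other exons. Counted once, the 982 host exons had a median of 356.5 bp, and 151 of them held 2 members and 4 held 3. The host exon was the longest exon but the last of its transcript in 45.2% of cases.

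In the canonical transcripts of the genes with a peak, 38770 coding exons other than the last were grouped by length, with a class limit at the peak width. A longer exon is a larger target, so the number per kb is given as well. Members lay in 0.79% of exons of up to 100 bp, 1.37% of those of 101 to 200 bp and 2.09% of those of 201 to 346 bp. The share was 23.6% for 347 to 500 bp, 27.3% for 501 to 1000 bp, 35.8% for 1001 to 2000 bp and 33.3% for exons over 2000 bp. Per kb of exon this was 0.106, 0.097 and 0.087 members in the 3 short classes, then 0.695, 0.523, 0.375 and 0.156. The number per kb therefore also rose between 201 to 346 bp and 347 to 500 bp, and within the long classes it fell as exons grew.

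Peaks annotated to introns showed the opposite pattern. An intron peak whose centre was moved back 173 bp, from the centre of the peak to its edge, against the strand of the peak, landed in 6.76, 16.0 and 22.1% of exons in the 3 short classes and in 5.06, 3.34, 1.89 and 0% of the 4 long classes. The upper 95% limit for exons over 2000 bp was 4.53%. Exons that held either kind of peak made up 7.52, 17.3, 23.3, 28.6, 30.2, 37.4 and 33.3% across the classes, which was a rise from 23.3 to 28.6% at the peak width. All exons under 347 bp together held a member in 1.26% (1.15 to 1.38%) and a moved intron peak in 13.7% (5055 of 36934), and the longer exons held a member in 27.4% (25.4 to 29.5%) and a moved intron peak in 3.65% (2.88 to 4.61%). Members were counted at their listed position and intron peaks at the moved one, so the 2 counts are not of 1 kind of peak.

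**Figure D3:**
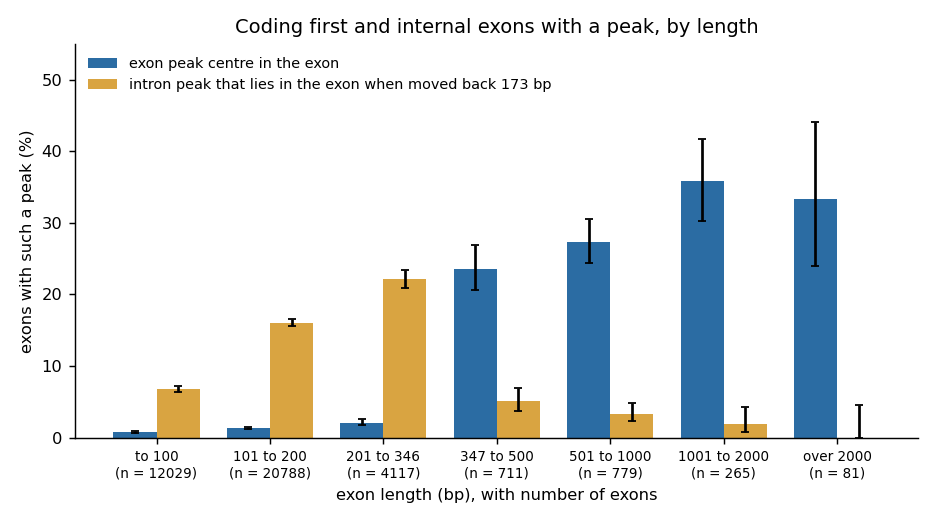
Share of coding first and internal exons (y axis, percent) that held the centre of an exon peak (blue) or an intron peak whose centre was moved back 173 bp (yellow), by exon length (x axis, with the number of exons), with Wilson 95% intervals. Blue bars rise from 2.09% for 201 to 346 bp to 23.6% for 347 to 500 bp, and yellow bars fall from 22.1% to 5.06%.

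Members in short and long exons also differed in where their centre lay. In the 480 members with a host exon under 347 bp (median 146 bp), the centre was a median of 16 bp from the exon edge ahead of it along the strand of the peak and 114 bp from the edge behind, and the edge ahead was nearer in 85.6%. It was 85.8% for the + strand and 85.5% for the − strand. Within 10 bp of the edge ahead lay 203 centres, against 8 for the edge behind. In the 316 members with an exon of at least 694 bp, the medians were 369.5 and 685.5 bp, and the edge ahead was nearer in 63.6%. Only 6 of these centres lay within 300 bp of the edge behind, against 135 for the edge ahead. Moved back 173 bp, 89 of the 480 short-exon members (18.5%) stayed in their exon and 359 (74.8%) fell in an intron, whereas 660 of 661 members in exons of 347 bp or more stayed.

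**Figure D4:**
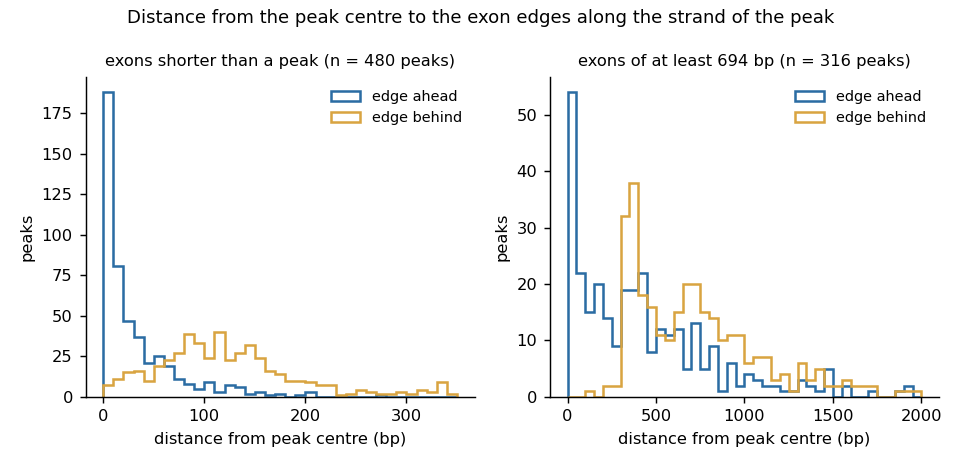
Number of members (y axis) by distance in bp (x axis) from the peak centre to the exon edge ahead (blue) and behind (yellow) along the strand of the peak, for exons shorter than a peak (left, 480 peaks) and exons of at least 694 bp (right, 316 peaks, with 12 distances behind and 8 ahead over 2000 bp, not shown). In the left panel 203 of 480 centres lie within 10 bp of the edge ahead, and in the right panel 6 of 316 lie within 300 bp of the edge behind.

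The centre of 1140 of 1141 members lay in coding sequence (99.9%), and 1 lay in a 5′-UTR. Peaks in UTRs and non-coding exons have labels of their own in the list, so this share largely follows from the selection. Read over every GENCODE transcript of the host gene, with coding sequence taken first, 63.3% lay in coding sequence and 342 in an intron when moved back, and 23.8% lay in coding sequence and 71.8% in an intron when moved forward. In the matched transcript alone, which was used for the exon edges, 360 lay in an intron when moved back. A peak overlapped its exon by a median of 194 bp, and 23.5% of peaks lay wholly inside it. For most members, then, the peak window held intron sequence as well, as in SET, CD9, ELAVL1 and XIAP above.

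A peak of the opposite strand lay within 1000 bp of 597 members (52.2%). The values that follow are per member, so a pair of 2 members can count for both. The + peak was on the right, at higher coordinates, for 94.3% of these members, and the centres were a median of 319 bp apart. The partner was itself a member in 69.0% and lay in an intron in 19.3%. Scores of partners were within 2-fold in 94.6%. Members with such a partner had a median score of 58.5 and members without one of 24.9. NSD1, a histone methyltransferase, is an example, with 90.1 and 86.1 in exon 2 of 23. The strand of a member matched that of its gene in 51.4% (48.5 to 54.3%), against 23.9% for last exons, 59.0% for 3′-UTRs and 55.1% for internal introns. The listed strand was therefore not taken as the sense direction, and sequences were read on the strand of the gene.

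Members in exon 1 differed from members in internal exons in composition. GC content was not measured for exon 1 sequence outside peaks, so a difference of peaks and one of exons cannot be told apart. The coding part of exon 1 members had a median GC content of 66.5%, and that of internal exon members was 46.6%. Their host exons had a median of 541 bp against 379 bp, and their scores a median of 48.7 (n = 175) against 37.8 (n = 968). The focus ratio, which describes how reads are placed around the peak centre, was 0.613 against 0.538. PHLDA1 and HNRNPU, named above, had their highest member in exon 1. Over 1140 members, the Spearman correlation of score with GC content of the coding part was 0.01.

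U-rich and AU-rich motifs were sparse in the coding part of the members, the only part searched. Densities inside members below refer to this part. Intron bases in the peak windows were not counted. Those printed above for SET, ELAVL1 and XIAP include TTTTT, and those for CD9 do not. Within the coding part, 177 of 1140 members (15.5%) had an ATTTA, 155 (13.6%) had a TTTTT and 855 had neither. ATTTA occurred 0.859 times per kb inside members (exact Poisson 95% interval 0.744 to 0.988, 198 matches) and 0.728 per kb (0.616 to 0.854) in the rest of the same exon parts outside all peaks. The intervals overlapped. TTTTT occurred 1.14 times per kb inside (1.00 to 1.28) and 0.820 per kb outside (0.701 to 0.954), and these intervals did not overlap. Of the 206000 bases outside, 204142 came from exons of 347 bp or more. In such exons alone TTTTT occurred 1.09 times per kb inside (0.936 to 1.26) and 0.818 outside (0.699 to 0.952), and these intervals overlapped. They also overlapped for members scoring at or above the median of the list, at 1.05 inside and 0.919 outside. Overlapping matches in 1 run of T were each counted, so they were not independent and the Poisson intervals for TTTTT are too narrow. The other coding exons of the same transcripts, with a GC content of 46.6% against 50.8% inside members, had 1.06 ATTTA and 1.23 TTTTT per kb. Inside 3′-UTR peaks the densities were 2.42 and 11.5 per kb at 38.9% GC. Both densities in members were nearer those of other coding sequence than those of 3′-UTR peaks. Member sequence was cut to coding bases, so this nearness was built in. 3′-UTR sequence outside peaks was not counted, so peak and kind of sequence cannot be told apart here.

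Over whole windows of 347 bp, 23.3% of 245 members wholly in coding sequence held ATTTA (18.4 to 28.9%), compared with 16.1% of 230 peak-free windows of the same exons (11.9 to 21.4%) and 15.1% of 13230 windows from all coding first and internal exons. For TTTTT the shares were 21.2, 16.5 and 14.7%. The intervals of members and of peak-free windows overlapped for both motifs, and those of members lay above the intervals of all coding windows, at 14.5 to 15.8% for ATTTA and 14.1 to 15.3% for TTTTT. Mean GC content was 50.5% in the member windows and 54.8% in all coding windows. The heptamer TATTTAT, which contains ATTTA, was found in 3 of the 245 windows (1.22%) and in 1.02% of all windows. Members with ATTTA had a median score of 47.2 and members without of 37.7. The length of coding sequence searched differed between members and was not matched, and a link of motif and score was not tested. C1GALT1, shown above with 4 matches, scored 62.4, and ACTB with 0 matches scored highest. A match is a description of these letters and not a binding site.

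**Figure D5:**
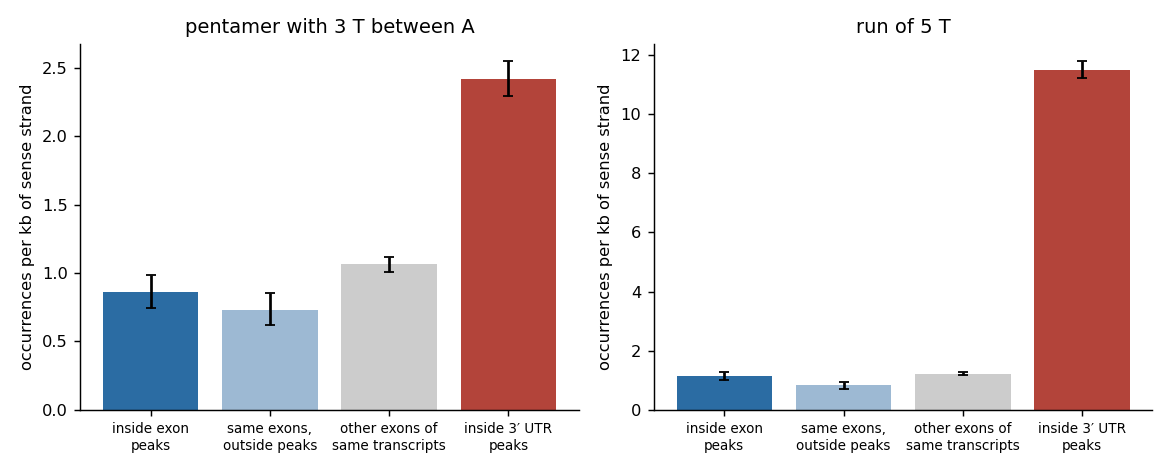
Occurrences per kb of sense strand (y axis) of ATTTA (left) and TTTTT (right) inside exon peaks (their coding part only), in the rest of the same exons, in other exons of the same transcripts and inside 3′-UTR peaks, with exact Poisson 95% intervals. ATTTA stands at 0.859 inside exon peaks and 2.42 inside 3′-UTR peaks, and TTTTT at 1.14 and 11.5.

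Members were counted in 6 gene groups, and differences between groups were not tested. Chromatin regulators had one in 10 of 26 genes, or 38.5% (22.4 to 57.5%), against 3.9% of all genes, and in 58.8% of those with any peak, against 24.9%. Their median coding length was 7179 bp, compared with 1281 bp for all genes, and their median best score was 30.6, compared with 38.6. NSD1 reached 90.1, ARID2 (a chromatin remodelling subunit) 42.3, KMT2A (a histone methyltransferase) 40.4 and ASH1L (another histone methyltransferase) 37.9. The exon of KMT2A was 2654 bp long. The part of coding length in this count was not tested. Host genes as a whole had a median coding length of 2125.5 bp, and other genes with a peak had 1527 bp.

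Of 29 genes for matrix, adhesion and receptors, 5 had a member (17.2%, and 41.7% of those with any peak), with 1058.6 for AXL, 247.2 for THBS1 (the matrix protein thrombospondin, 3 members), 60.9 for LAMC1 (a laminin chain), 50.2 for NOTCH2 and 25.2 for CD44. RNA-binding and mRNA decay proteins had members in 4 of 34 genes (11.8%, and 28.6% of those with any peak), HNRNPU, PCBP2 (a poly(C)-binding protein) at 817.1, ELAVL1 and FMR1 (the fragile X protein) at 34. Actin genes had 3 of 40 (7.5%, and 33.3% of those with any peak), ACTB, CNN3 (a calponin) at 639.9 and RDX (radixin) at 86.4. Chaperones and the secretory pathway had 2 of 23 (8.70%, and 33.3% of those with any peak), PDIA4 (a protein disulfide isomerase) at 698.7 and DNAJC10 (a co-chaperone of the endoplasmic reticulum) at 208.5. Mitosis and DNA repair had 1 of 20 (5%, and 10% of those with any peak), BRCA2 at 24. Over all protein-coding genes the shares were 3.9% and 24.9%. The intervals of the 5 shares of all listed genes were wide, from 0.888 to 34.5%, and they overlapped each other. That of chromatin regulators, 22.4 to 57.5%, overlapped all of them except that of actin genes, 2.58 to 19.9%. Median coding length was 5524.5 bp for mitosis and DNA repair and 3543 bp for matrix, adhesion and receptors. It was 1624.5 to 1962 bp for the other groups of this paragraph.

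The longest host exons had low scores. ZNF550, a zinc finger gene, had 10.3 in an exon of 6156 bp. NHSL1 had 14.7 in 3288 bp, BCORL1, a transcriptional corepressor, had 9.54 and 8.81 in 3264 bp, and TSC22D1, a leucine zipper protein, had 13 in 3168 bp. TSC22D2 was higher, with 72.2 in 3011 bp. Over exons longer than 2000 bp the median score was 18.4 (37 members), against 37 for 1001 to 2000 bp, 51.1 for 501 to 1000 bp (283 members), 45.4 for 347 to 500 bp and 48.2 for 201 to 346 bp. The shortest exons were also low, with 32.4 for 101 to 200 bp and 24.2 for up to 100 bp. Over all members, the Spearman correlation of score with host exon length was 0.09.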

How the data were processed

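RNA from HuR and mouse IgG immunoprecipitations of MDA-MB-231 cells was sequenced in duplicate. The authors mapped the reads to hg38 with STAR, detected peaks with HOMER and kept those tied to a significant change in transcript abundance. Versions, settings, the threshold and any pooling of replicates are not given in the sources used here. The deposited list gives a peak score of unstated scale, a focus ratio as a fraction and a distance in bp to the nearest start site. Its annotation used RefSeq transcripts on hg38 per the file headers.

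Members were peaks annotated to exon k of n with k below n. Host genes came from the RefSeq gene table, and exons and coding parts from GENCODE 44 on hg38, coordinates being 1-based. Where several transcripts fitted, a coding transcript with the listed exon number and count was preferred. Canonical transcripts were used for the classes of exon length. The step was the candidate that best fitted the scores under 30, and 98.3% of these lay within 0.2 of a step of a multiple. Motifs were counted with overlaps. Shares have Wilson 95% intervals and densities exact Poisson 95% intervals, and no p-value was computed because the list has no values for single samples. Alternatives were higher scores, 1 peak per locus or gene, the gene column, the canonical transcript, moved positions and other motifs. Named genes were the 10 with the highest member, the 10 with most members, the 14 genes the study discusses, up to 4 with the highest peak per gene list and those of the 5 longest exons. Genes named otherwise were chosen after their values were seen. The members, gene lists and named-gene rule were chosen with earlier results of these data known. The functions were tested on simulated data. Python 3.11.15, numpy 2.4.6, scipy 1.17.1, pandas 2.3.3, pysam 0.24.0 and matplotlib 3.10.9 were used.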

Additional observations from a re-analysis of the deposited data

How the results depend on the processing

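With scores at or above the median of the list, 632 members in 419 host genes were left, the share centred in coding sequence was 100%, the median host exon was 440 bp, 54.8% of members were on the strand of their gene, and members lay in 16.2% of exons of a peak width or more and in 0.593% of shorter ones. Counting only peaks whose gene column gave the host left 750 members. Moving the centre back gave 63.3% in coding sequence and moving it forward 23.8%. Each host exon counted once had a median of 356.5 bp. TATTTAT occurred 0.0477 times and TTTTT 1.14 times per kb in the coding part of members, against 0.859 for ATTTA. With 1 peak per locus, 56.5% were on the strand of their gene. Over genes with a member only, 60.5% of the long and 4.74% of the short exons held a member. This setting and the higher score for exon shares, 1 peak per gene for ATTTA and scores without exon 1 were chosen after seeing the data. In all, 16 of 28 alternatives moved a value and 0 reversed it. A reversal meant a change of sign, which only the score difference of 3′-UTR and exon peaks within genes could show. For all other results it was not possible. No paired analysis was possible because no sample has values of its own in the list, and leaving out a replicate could not be run for the same reason. Library depth is unknown, so weak exon peaks may be missing from the list.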

Other observations

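The gene column of the list, which gives the gene with the nearest start site, named another gene than the host for 391 of 1141 members (34.3%). For CORO1C it gave MIR4496, for LARP1 MIR378H, for RBPJ CCKAR for 3 of 4 members, for MTMR4 HSF5 for 2 of 4 members and for ELAVL1 TIMM44. Counted by that column, the members fell in 808 genes.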
